A study of Mus musculus with 2 samples.

Results

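The interleukin 1 and 18 system was followed through 8 genes, taken by name from the 31053 gene identifiers of the count matrices: the cytokines Il1a, Il1b and Il18, the receptor chains Il1r1 and Il1rap, the decoy receptor Il1r2, the receptor antagonist Il1rn and the binding protein Il18bp. The cells came from mammary tumours of mice, 1 raised from the PyMT-N line and 1 from the PyMT-M line, both named for the polyoma middle T oncogene that drives mouse models of breast cancer. What N and M stand for is not stated in the labels. Each line was placed in the mammary gland, the tumours were taken 4 weeks later at 0.7 to 1 cm across, and living cells with the blood cell surface protein CD45 (CD45+, DAPI-) were sorted for a droplet assay that counts unique molecular identifiers (UMIs) at the 5′ ends of transcripts. There was 1 library per line, so no difference below has a replicate check, cells are not replicates, and every interval is a 95% interval of counting error only.

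Interleukin 1 alpha and beta bind the receptor IL1R1, which recruits the accessory chain IL1RAP and signals through MYD88 to NF-kB. The decoy receptor IL1R2 binds the same cytokines but has no signalling domain, and the antagonist encoded by Il1rn occupies IL1R1 without recruiting IL1RAP. Interleukin 1 beta and interleukin 18 are made as precursors that caspase 1 cuts inside inflammasomes, and IL18BP is a secreted protein that binds free interleukin 18. RNA counts show neither the cut nor the secreted protein. In mammary tumours, myeloid cells are a known source of interleukin 1 beta.

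After filters the PyMT-N library held 4994 cells and 14874462 UMIs, and the PyMT-M library 7357 cells and 43770542 UMIs. The deposited barcodes of the libraries had 60 in common. Cells were put into classes by UMIs of marker genes, none of which is a member. The PyMT-N library had 2844 neutrophils, 725 macrophages, 282 monocytes and 167 T cells, and the PyMT-M library had 44, 5558, 185 and 550 cells of the same classes. No class was given to 16.8% of PyMT-N cells and 5.97% of PyMT-M cells. Although the labels name the cell type as tumour, only 9 PyMT-N and 83 PyMT-M cells passed the gate for epithelial or tumour cells. Of check genes kept out of the gates, all 4 for neutrophils were highest in that class in both libraries, as were 4 (PyMT-N) and 5 (PyMT-M) of 5 for macrophages. For monocytes only 1 (PyMT-N) and 2 (PyMT-M) of 5 were, so "monocyte" here means cells with more UMIs of Ly6c2, Ccr2, Vcan, Chil3 and Plac8 than of macrophage genes. Levels are counts per 1000000 UMIs (CPM) of a class. Ratios are log2 of PyMT-N over PyMT-M with 1 CPM added to each, and their intervals are those of the ratio without the added CPM. A gene with 20 UMIs or more over both libraries in a class was listed there, and it was called when its ratio reached 2-fold. Fewer transcripts of a member per cell and more transcripts of other genes cannot be told apart in CPM.

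All 8 genes were placed on GRCm38 from GENCODE annotation. Il1a (chromosome 2, 129299610 to 129309972) and Il1b (chromosome 2, 129364570 to 129371139) lie 54.6 kb apart on the minus strand, and Il1rn (chromosome 2, 24336853 to 24351494) is on the plus strand far from both. Il1r2 (chromosome 1, 40074079 to 40125231) and Il1r1 (chromosome 1, 40225080 to 40317257) are plus strand neighbours 99.8 kb apart. Il1rap is on chromosome 16 (26581704 to 26730117, plus strand), Il18 on chromosome 9 (50554827 to 50581840, plus strand) and Il18bp on chromosome 7 (102014885 to 102018690, minus strand). The antisense gene Il1bos overlaps Il1b by 1243 bases, Tex12 overlaps Il18 by 4507 bases on the opposite strand, and Numa1 overlaps Il18bp by 80 bases. The sources used here do not state whether strand entered the counting.

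The 250 bases before the RefSeq start (GRCm38.p6) are shown for 3 genes that the results turn on, the cytokine Il1b, the decoy Il1r2 and the binding protein Il18bp. Their windows are chr2:129371140-129371389 on the minus strand for Il1b, chr1:40085843-40086092 on the plus strand for Il1r2 and chr7:102018233-102018482 on the minus strand for Il18bp. The Il1b window ends at a start that 2 GENCODE transcripts share, while the windows of Il1r2 and Il18bp lie inside the GENCODE gene spans. Capitals mark a TATA motif in Il1b, a GAS motif in Il1r2 and a C/EBP motif in Il18bp.
Il1b: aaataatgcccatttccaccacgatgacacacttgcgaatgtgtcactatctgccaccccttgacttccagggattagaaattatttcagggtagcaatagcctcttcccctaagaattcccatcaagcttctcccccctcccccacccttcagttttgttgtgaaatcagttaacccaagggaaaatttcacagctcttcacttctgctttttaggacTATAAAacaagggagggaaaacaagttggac
Il1r2: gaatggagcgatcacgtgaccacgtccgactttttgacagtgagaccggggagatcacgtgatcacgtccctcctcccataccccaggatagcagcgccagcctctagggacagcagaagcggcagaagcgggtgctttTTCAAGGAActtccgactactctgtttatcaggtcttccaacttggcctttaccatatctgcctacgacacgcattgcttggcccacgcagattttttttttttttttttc
Il18bp: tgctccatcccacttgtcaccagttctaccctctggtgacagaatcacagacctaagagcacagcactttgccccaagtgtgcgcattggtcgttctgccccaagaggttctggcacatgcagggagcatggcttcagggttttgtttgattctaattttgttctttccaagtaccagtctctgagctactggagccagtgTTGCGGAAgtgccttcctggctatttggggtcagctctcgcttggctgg

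Both strands were searched for the TATA motif in the letters TATAAA, for the GAS motif in the letters TTCNNNGAA, for the C/EBP motif in the letters TTGCNNAA and for the PU.1 motif in the letters GAGGAA. The interferon element ISRE and the NF-kB motif were searched as well. The Il1b match spans positions -31 to -26 before the start, the Il1r2 match -111 to -103 and the Il18bp match -49 to -42. Of 32851 RefSeq windows of the same length, 12.4% held TATA, 7.02% GAS, 9.56% C/EBP, 23.3% PU.1, 2.98% ISRE and 7.25% the NF-kB motif. None of the 11 windows of the 8 members held the ISRE. In the windows not shown, Il1a held TATA and PU.1, Il18 held TATA, and the 2 Il1r1 windows held C/EBP and the NF-kB motif. No 2 motifs overlapped in the member windows. A match describes letters in a window and not a bound site.

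The same cytokine RNA sat in different cells in the 2 tumours. Neutrophils held 82.9% of all Il1b UMIs of the PyMT-N library, and macrophages 93.0% of those of the PyMT-M library. For Il1a the shares were 61.6% in PyMT-N neutrophils and 99.3% in PyMT-M macrophages. The decoy Il1r2 was with neutrophils for 86.2% of its PyMT-N UMIs. In PyMT-M, 35.4% of Il1r2 UMIs were in 44 neutrophils, which made up 0.598% of cells, and 36.9% were in macrophages. Il18bp was with macrophages for 57.3% of its UMIs in PyMT-N and 98.2% in PyMT-M.

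**Figure D1:**
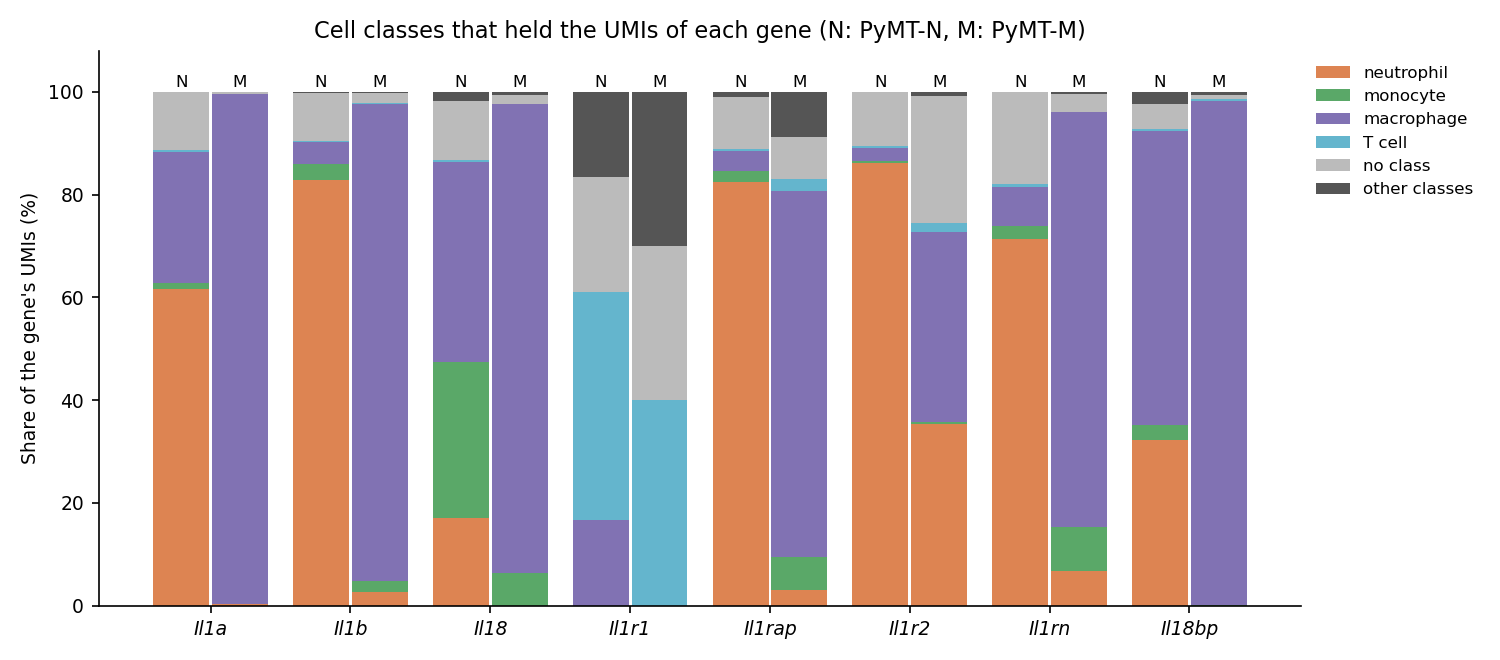
Share of each gene's UMIs (%, y axis) held by each cell class, in PyMT-N (left bar, N) and PyMT-M (right bar, M), for the 8 genes on the x axis. Neutrophils held 82.9% of Il1b UMIs in PyMT-N and macrophages 93.0% in PyMT-M; the Il1r1 bars rest on 18 UMIs in PyMT-N and 10 in PyMT-M.

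Over all cells Il1b was at 5143 CPM in PyMT-N, against 1073 CPM in PyMT-M, a log2 ratio of 2.26 (2.24 to 2.28). In that sum the makeup of each library and the level within each class are joined. With the PyMT-N class makeup and PyMT-M levels within classes Il1b would be at 7531 CPM, and with the PyMT-M makeup and PyMT-N levels at 952 CPM. The decoy Il1r2 was at 491 CPM in PyMT-N, against 6.19 CPM in PyMT-M, and the PyMT-N makeup with PyMT-M levels gives 530 CPM, and the PyMT-M makeup with PyMT-N levels 66.6 CPM. Neutrophils have 41.7% of UMIs in the PyMT-N makeup. For Il1b and Il1r2, the values with PyMT-M levels therefore rest largely on 44 PyMT-M neutrophils, with 1285 Il1b and 96 Il1r2 UMIs. No interval was set on the exchanged values. In all, 4 of 8 members (Il1b, Il1r2, Il1rn and Il1rap) were 2-fold or more higher in PyMT-N over all cells, where 7.2% of listed genes were, and 1 (Il18bp) was 2-fold or more higher in PyMT-M, where 15.4% of listed genes were. Il18bp was at 16.7 CPM in PyMT-N, against 174 CPM in PyMT-M, and neither exchange of class makeup brought the libraries together: the PyMT-N makeup with PyMT-M levels gives 64.6 CPM, and the PyMT-M makeup with PyMT-N levels gives 28.8 CPM.

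**Figure D2:**
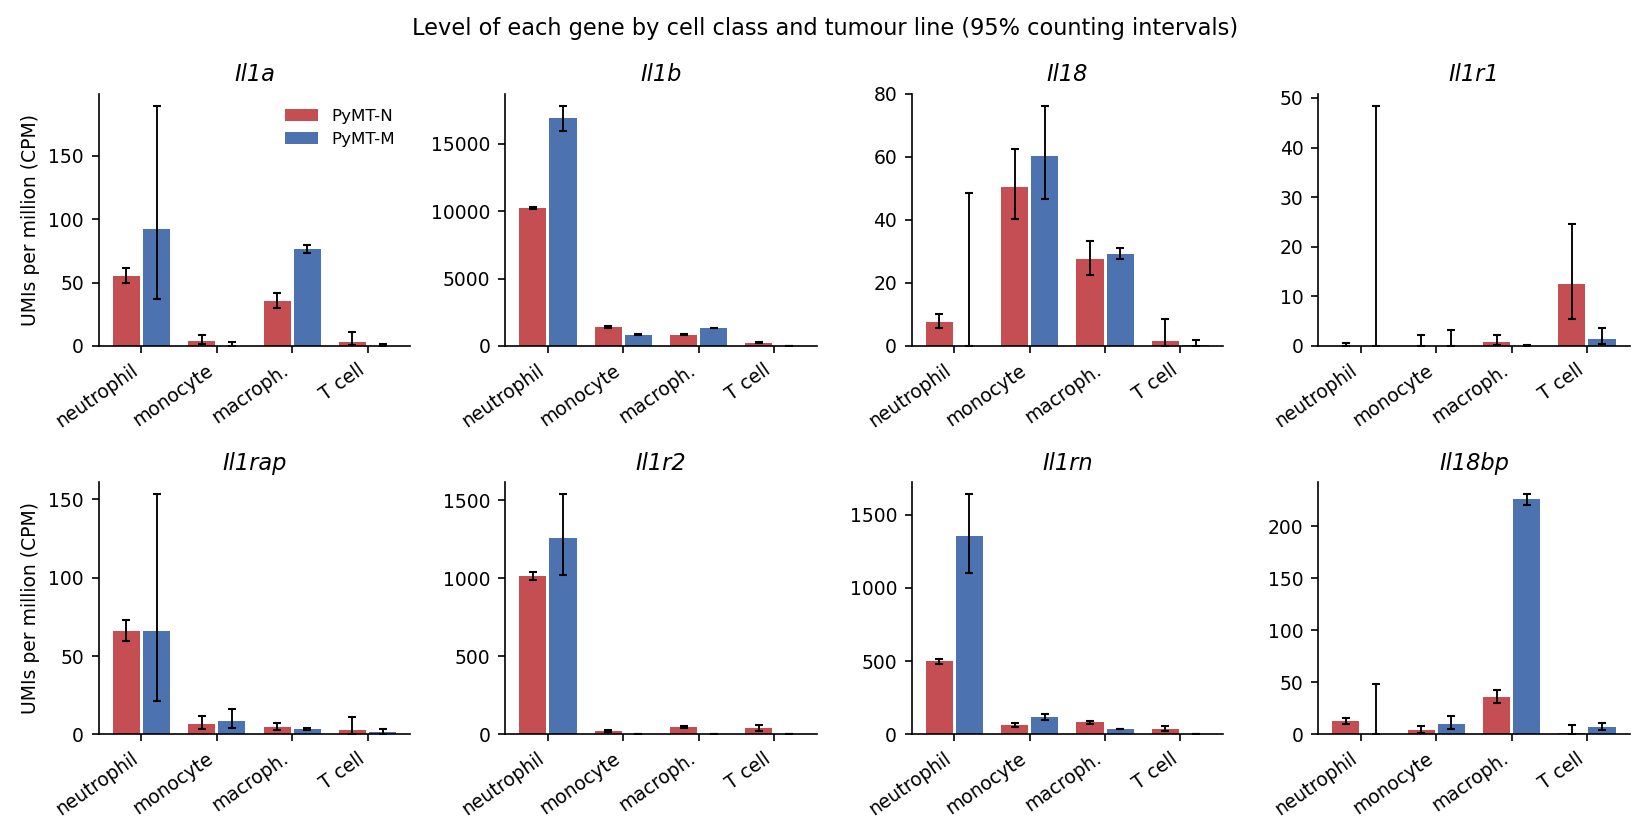
Level of each gene (CPM, y axis, a scale for each gene) in neutrophils, monocytes, macrophages and T cells (x axis), with PyMT-N in red on the left and PyMT-M in blue on the right; bars are summed counts of 1 library and lines are exact Poisson 95% intervals. Il1b, Il1r2, Il1rn and Il1rap are highest in neutrophils of both tumours, Il18bp in macrophages of both and Il18 in monocytes of both.

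Within neutrophils, macrophages and monocytes, the ligand Il1b differed between tumours by less than 2-fold, and not in one direction. Neutrophils had Il1b at 10225 CPM in PyMT-N (10146 to 10305) and 16886 CPM in PyMT-M (15975 to 17835), a log2 ratio of -0.72 (-0.80 to -0.64). Macrophages had 842 CPM in PyMT-N (813 to 871) and 1319 CPM in PyMT-M (1307 to 1331), a log2 ratio of -0.65 (-0.70 to -0.60). Monocytes had 1395 CPM in PyMT-N (1339 to 1453) and 844 CPM in PyMT-M (792 to 900), a log2 ratio of 0.72 (0.62 to 0.83). Neutrophils and macrophages of the PyMT-N tumour were thus lower in Il1b, and its monocytes higher. Neutrophils stood first in both tumours, followed by monocytes and then macrophages in PyMT-N, and by macrophages and then monocytes in PyMT-M. Dendritic cells were at 209 CPM in PyMT-N (21 cells) and 182 CPM in PyMT-M (59 cells), with overlapping intervals (141 to 298 and 143 to 227).

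Cell by cell, almost every neutrophil carried Il1b. With cells thinned to an equal 1000 UMIs, 94.2% of 2715 PyMT-N neutrophils (93.3 to 95.1%) and all 40 PyMT-M neutrophils (91.2 to 100%) kept a UMI of Il1b, and without thinning the shares were 95.9% and 97.7%. The thinned median was 10 UMIs in PyMT-N, with quartiles of 5 and 15, and 17 UMIs in PyMT-M, with quartiles of 10.5 and 23.5. At 20 UMIs or more were 12.5% of PyMT-N and 40.0% of PyMT-M neutrophils. The median and both quartiles were thus lower in PyMT-N, and the PyMT-M side rests on 40 cells. Thinned macrophages kept a UMI in 32.6% of 693 cells in PyMT-N and 44.2% of 5320 cells in PyMT-M (unthinned, 50.3% and 61.4%), and monocytes in 53.8% of 279 and 40.5% of 185 cells (unthinned, 75.2% and 62.7%). As a level of free RNA, B cells held 4 Il1b UMIs in 4 of 53 cells in PyMT-N and 0 in 44 cells in PyMT-M, at median depths of 1545 and 1846.5 UMIs.

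**Figure D3:**
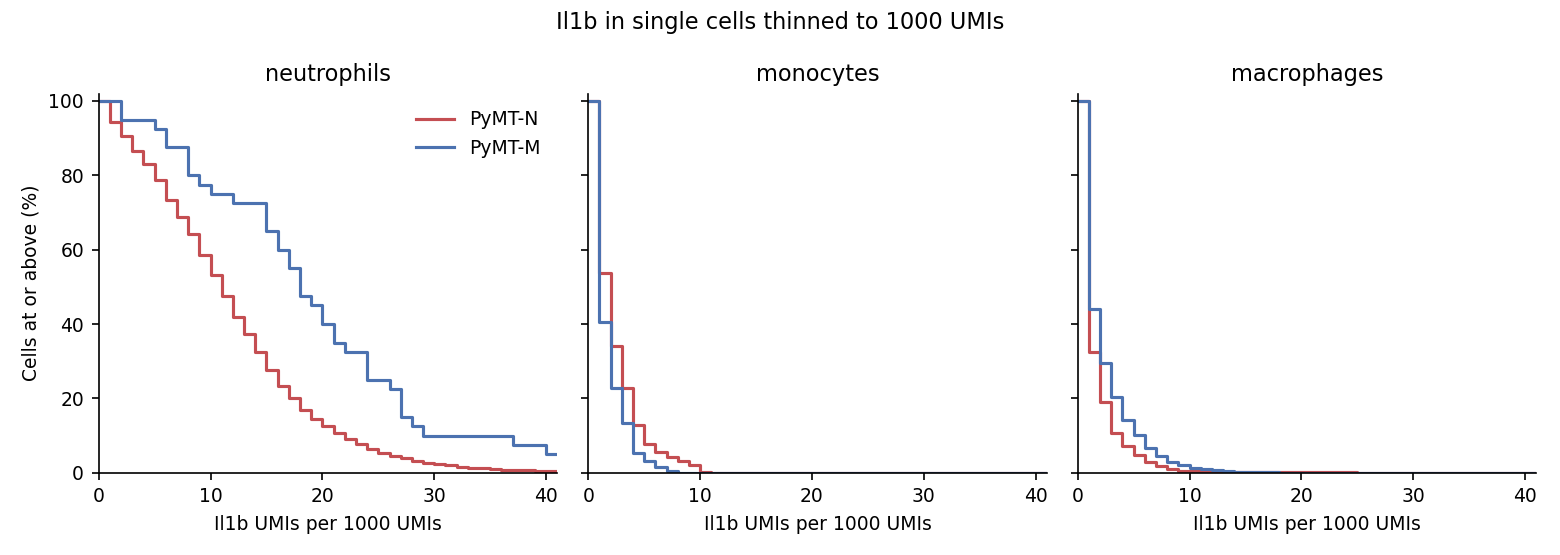
Share of cells (%, y axis) at or above each number of Il1b UMIs per 1000 UMIs (x axis) in neutrophils, monocytes and macrophages, with PyMT-N in red and PyMT-M in blue. The PyMT-N neutrophil curve (median 10) runs below the PyMT-M one (median 17), and the PyMT-N monocyte curve runs above the PyMT-M one up to 10 UMIs.

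S100a8 and S100a9, check genes of the neutrophil class, were also counted in macrophages and monocytes. The neutrophil genes S100a8 and S100a9 together were at 1126 CPM in PyMT-N macrophages, against 36.6 CPM in PyMT-M macrophages, and at 610 CPM in PyMT-N monocytes and 1.77 CPM in PyMT-M monocytes. With neutrophil RNA taken off in proportion to those genes, the Il1b ratio was -0.86 in macrophages and 0.66 in monocytes. That step takes their UMIs as RNA from neutrophils, and this origin was not tested. Leaving out cells that also passed the marker minimum of another class gave -0.98 in macrophages and 0.57 in monocytes. The direction in each class was the same under both.

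Interleukin 1 alpha, the other ligand of IL1R1, was lower in PyMT-N macrophages. They had Il1a at 35.6 CPM (141 UMIs), against 76.4 CPM in PyMT-M macrophages (2530 UMIs), a log2 ratio of -1.08 (-1.36 to -0.86). Thinned cells with a UMI were 2.45% in PyMT-N and 5.94% in PyMT-M. In neutrophils Il1a was at 55.0 CPM in PyMT-N, against 92.0 CPM in PyMT-M, where 7 UMIs gave an interval of the ratio from -1.80 to 0.58, so no difference was detectable at this depth. Il1a was uneven among PyMT-N neutrophils: 10 cells held 29.3% of its UMIs, and 1 cell held 27.

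Interleukin 18, which with interleukin 12 drives interferon gamma release from T and natural killer (NK) cells, differed by less than counting error between the tumours within macrophages and within monocytes. Over all cells it was at 18.8 CPM in PyMT-N, against 24.3 CPM in PyMT-M, a log2 ratio of -0.35 (-0.56 to -0.18). Il18 was at 27.6 CPM in PyMT-N macrophages, against 29.3 CPM in PyMT-M macrophages (log2 ratio -0.08, -0.39 to 0.20). Monocytes had the highest Il18 level of the main classes in both tumours, at 50.6 CPM in PyMT-N, against 60.2 CPM in PyMT-M (log2 ratio -0.25, -0.73 to 0.23). PyMT-N neutrophils had 7.74 CPM, from 48 UMIs in 2844 cells. The 44 PyMT-M neutrophils had none, but 3 UMIs there would be 39.4 CPM, so neutrophil Il18 could not be compared.

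The signalling receptor Il1r1 was close to undetected in these sorted cells. It had 18 UMIs in PyMT-N and 10 in PyMT-M over all cells. No UMI fell in the 2844 PyMT-N neutrophils (0 to 0.595 CPM) or the 5558 PyMT-M macrophages (0 to 0.111 CPM), and 3 fell in PyMT-N macrophages. T cells held the most, with 8 UMIs in 6 of 167 PyMT-N cells and 4 UMIs in 2 of 550 PyMT-M cells. The 7 stromal or endothelial cells of PyMT-N held 1 UMI and the 17 of PyMT-M held 3. Stromal cells are a main known site of IL1R1, and the CD45 sort leaves most of them out.

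The accessory chain Il1rap, shared by the receptors for interleukin 1, 33 and 36, had its highest level among the main classes in neutrophils of both tumours. Neutrophils held 82.5% of its UMIs in PyMT-N and 3.12% in PyMT-M, where macrophages held 71.3%. Neutrophils had 66.0 CPM in PyMT-N (59.7 to 72.7) and 65.7 CPM in PyMT-M (21.3 to 153, from 5 UMIs), a log2 ratio of 0.01 with an interval from -1.23 to 1.64. Monocytes had 6.54 CPM in PyMT-N, against 8.85 CPM in PyMT-M, and macrophages 4.80 CPM in PyMT-N, against 3.44 CPM in PyMT-M. Both intervals of the ratio, -1.81 to 0.96 in monocytes and -0.30 to 1.19 in macrophages, span 0.

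The decoy receptor Il1r2 marked neutrophils in both tumours at levels that differed little, and differed between tumours outside them. Neutrophils had 1015 CPM in PyMT-N (990 to 1040) and 1262 CPM in PyMT-M (1022 to 1541), a log2 ratio of -0.31 (-0.60 to -0.01). Scaling by the median ratio of well counted genes, which moves all neutrophil ratios by 0.23, left -0.08. Thinned neutrophils with a UMI were 47.2% in PyMT-N and 50.0% in PyMT-M (unthinned, 62.7% and 59.1%). In PyMT-M, 10 of 44 neutrophils held 70.8% of the 96 Il1r2 UMIs, a spread among cells that the counting interval does not include.

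Macrophages had Il1r2 at 47.0 CPM in PyMT-N (186 UMIs in 55 of 725 cells) and 3.02 CPM in PyMT-M (100 UMIs in 84 of 5558 cells), a log2 ratio of 3.58 (3.60 to 4.33 without the added CPM). In PyMT-N, 10 macrophages held 53.8% of those UMIs. The ratio was 2.62, at 21.6 CPM in PyMT-N, without cells that also passed the minimum of another class, and 3.41 with neutrophil RNA taken off. For each UMI of S100a8 and S100a9, Il1r2 had 0.0418 UMIs in PyMT-N macrophages, 0.0105 in PyMT-N neutrophils and 0.0312 in PyMT-N monocytes. The part of neutrophil RNA in the macrophage and monocyte levels of Il1r2 was not tested beyond these alternatives. In monocytes Il1r2 had 32 UMIs in PyMT-N (19.0 CPM) and 1 in PyMT-M (0.885 CPM), a log2 ratio of 3.41 (1.84 to 9.77 without the added CPM), and 6.92 CPM remained in PyMT-N without cells of another class.

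The antagonist Il1rn, which blocks IL1R1, ran in opposite directions in neutrophils and macrophages. Neutrophils had 499.8 CPM in PyMT-N (482 to 518) and 1354 CPM in PyMT-M (1105 to 1642), a log2 ratio of -1.44 (-1.72 to -1.14). Macrophages had 83.4 CPM in PyMT-N (74.7 to 92.9) and 37.6 CPM in PyMT-M (35.6 to 39.8), a log2 ratio of 1.13 (0.97 to 1.33). Monocytes had 61.9 CPM in PyMT-N (50.5 to 75.0) and 119 CPM in PyMT-M (99.4 to 140), a log2 ratio of -0.93 (-1.32 to -0.56). PyMT-N was thus lower in neutrophils and monocytes and higher in macrophages. The macrophage ratio was 0.83, under 2-fold, without cells that also passed the minimum of another class. In PyMT-M neutrophils 10 of 44 cells held 75.7% of the Il1rn UMIs, and thinned cells with a UMI were 28.0% in PyMT-N and 45.0% in PyMT-M (29.3 to 61.5%; unthinned, 41.3% and 63.6%).

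Il18bp, the soluble inhibitor of interleukin 18, was lower in PyMT-N macrophages, by more than any other member listed there. They had 35.9 CPM (30.2 to 42.3, 142 UMIs), against 226 CPM in PyMT-M macrophages (221 to 231, 7474 UMIs), a log2 ratio of -2.62 (-2.90 to -2.41). Thinned macrophages with a UMI were 3.75% in PyMT-N and 17.8% in PyMT-M, and 12.4% and 44.9% unthinned. The UMIs were spread over many PyMT-M cells, since the 10 highest held 3.85%. The ratio ran from -2.68 to -2.50 over all alternatives in processing. The macrophage genes C1qa, C1qb and C1qc together were also lower in PyMT-N macrophages, at 11607.5 CPM, against 26555.6 CPM in PyMT-M macrophages. For each of their UMIs, macrophages had 0.00309 Il18bp UMIs in PyMT-N and 0.00850 in PyMT-M. The part of this difference between the macrophage classes in the Il18bp ratio was not tested. Monocytes had 4.16 CPM in PyMT-N, against 9.74 CPM in PyMT-M, from 7 and 11 UMIs. At 39.0 CPM, from 33 UMIs, the 83 epithelial or tumour cells of PyMT-M were higher. PyMT-N neutrophils had 12.9 CPM, at 0.556 Il18bp UMIs for each UMI of C1qa, C1qb and C1qc, against 0.00309 in PyMT-N macrophages, from 80 Il18bp UMIs.

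Counted over the 7 members listed in macrophages, 2 (Il1r2 and Il1rn) were 2-fold or more higher in PyMT-N, where 3.28% of 12178 listed genes were, and 2 (Il1a and Il18bp) were 2-fold or more higher in PyMT-M, where 8.19% of listed genes were. In neutrophils 1 of 7 (Il1rn) was 2-fold or more higher in PyMT-M, where 14.8% of 8384 listed genes were. There 2 of 7 (Il18 and Il18bp) passed 2-fold higher in PyMT-N, beside 33.6% of listed genes, but both had 0 UMIs in PyMT-M, below what 3 UMIs would give, and no ratio can be read from them. In monocytes 1 of 5 (Il1r2) was higher in PyMT-N, where 2.74% of 7507 listed genes were, and 0 were higher in PyMT-M, where 4.13% were; scaling by the median ratio turns those shares into 3.62% and 3.13%. In B cells no member reached 20 UMIs, while 7.07% of listed genes were 2-fold or more higher in PyMT-N, against 9.1% in PyMT-M. The median ratio of the listed members was -0.31 in neutrophils, -0.08 in macrophages and -0.25 in monocytes, beside 0.16, -0.18 and -0.11 for all listed genes.

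**Figure D4:**
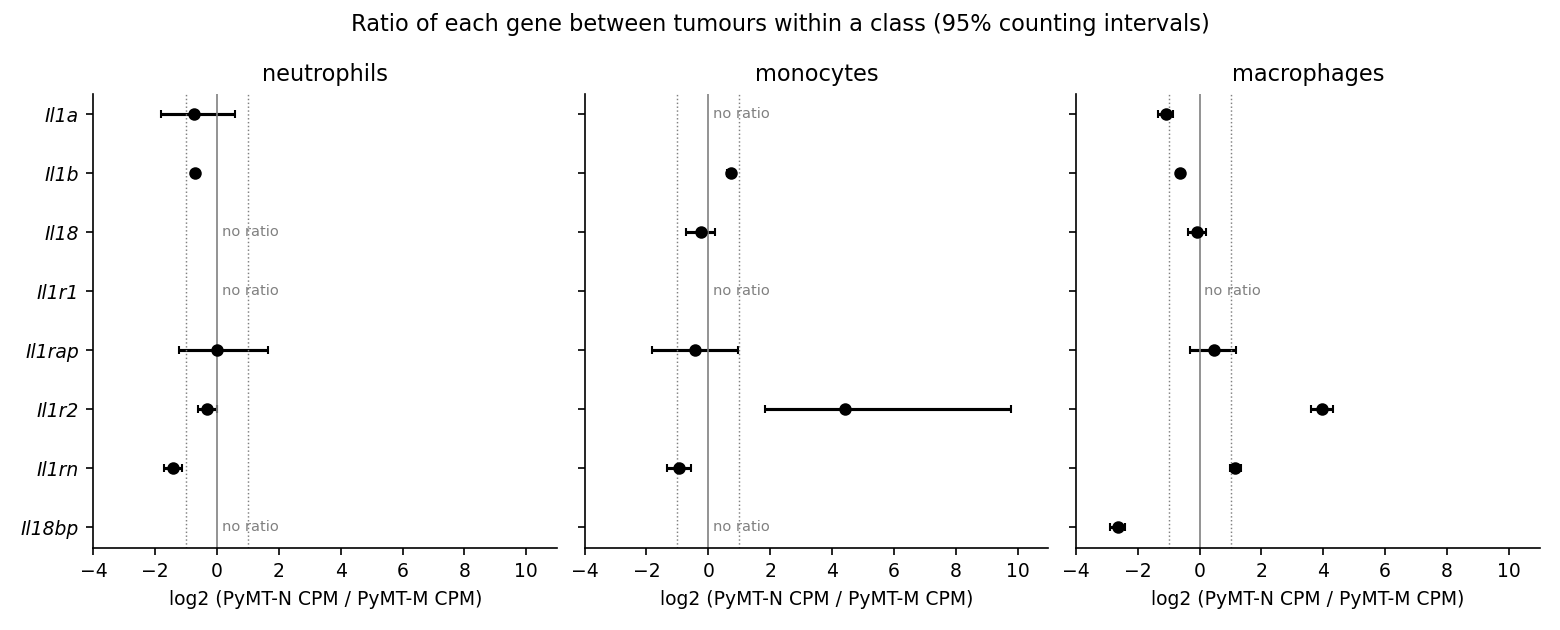
Log2 ratio of PyMT-N over PyMT-M CPM (x axis, nothing added to the CPM) of the 8 genes (y axis) in neutrophils, monocytes and macrophages; points are ratios of summed counts and bars are 95% counting intervals, dotted lines mark 2-fold. Il1b lies left of 0 in neutrophils and macrophages and right of 0 in monocytes, Il1rn lies right of 0 in macrophages only, and "no ratio" marks genes with fewer than 20 UMIs or none in a library.

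The balance of inhibitor and cytokine RNA within a class moved with these levels. Per 100 Il1b UMIs, neutrophils had 4.89 Il1rn UMIs in PyMT-N (4.71 to 5.07) and 8.02 in PyMT-M (6.49 to 9.80). Macrophages had 9.91 in PyMT-N (8.83 to 11.1) and 2.85 in PyMT-M (2.69 to 3.02), and monocytes 4.43 in PyMT-N (3.61 to 5.40) and 14.0 in PyMT-M (11.6 to 16.8). Macrophages were thus the class with more antagonist RNA per Il1b RNA in PyMT-N, and neutrophils and monocytes the classes with more in PyMT-M. For the decoy, neutrophils had 9.92 Il1r2 UMIs per 100 Il1b UMIs in PyMT-N (9.67 to 10.2) and 7.47 in PyMT-M (6.01 to 9.20). Macrophages had 1.30 Il18bp UMIs per Il18 UMI in PyMT-N (1.01 to 1.69) and 7.71 in PyMT-M (7.21 to 8.26).

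Il1b and Il18bp were higher in different macrophages of the same tumour. Macrophages were divided at the median share of the antigen presentation genes H2-Aa, H2-Ab1, H2-Eb1 and Cd74, within each library. In PyMT-N the upper 363 cells had Il1b at 987 CPM and the lower 362 cells at 647 CPM, while Il18bp was at 26.0 CPM and 49.1 CPM. In PyMT-M the upper 2779 cells had Il1b at 1981 CPM and the lower 2779 cells at 693 CPM, while Il18bp was at 130 CPM and 316 CPM. In both libraries the cells high in MHC class II had more Il1b and less Il18bp. The log2 ratios of upper over lower cells were 0.61 (PyMT-N) and 1.51 (PyMT-M) for Il1b, and -0.89 (PyMT-N) and -1.28 (PyMT-M) for Il18bp. In thinned PyMT-M macrophages, Il18bp was found in 10.8% of 2350 cells with Il1b (9.58 to 12.1%) and in 23.3% of 2970 cells without it (21.8 to 24.8%). In PyMT-N the same shares were 2.65% of 226 cells and 4.28% of 467 cells, with overlapping intervals (0.98 to 5.69% and 2.64 to 6.54%).

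Other macrophage divisions separated Il1rn, Il1a and Il1b in both tumours, and Il18bp in PyMT-M. The protease genes Ctsk and Mmp12 together had 2 or more UMIs in 80 PyMT-N and 31 PyMT-M macrophages. Those cells had Il1rn at 178 CPM (92 UMIs) in PyMT-N, against 69.2 CPM in the other PyMT-N macrophages. In PyMT-M they had Il1rn at 138 CPM (44 UMIs), against 36.6 CPM in the other PyMT-M macrophages. Cells with 10 or more UMIs of the chemokine genes Ccl3 and Ccl4 had Il1a at 87.0 CPM, against 20.3 CPM in the rest of PyMT-N macrophages, and at 85.4 CPM, against 62.8 CPM in the rest in PyMT-M, log2 ratios of 2.04 and 0.44. Il1b was at 1055 CPM in those cells, against 778 CPM in the rest in PyMT-N, and at 1657 CPM, against 803 CPM in the rest in PyMT-M, log2 ratios of 0.44 and 1.05. The minimum of 10 UMIs took 117 of 725 PyMT-N macrophages and 2767 of 5558 PyMT-M macrophages. Because these shares are unlike, how strongly each tumour was divided cannot be compared. Cells with 3 or more UMIs of 6 interferon genes had Il18bp at 39.2 CPM, against 35.1 CPM in the rest in PyMT-N. That log2 ratio was 0.16, with an interval (-0.47 to 0.75) that spans 0. In PyMT-M such cells had 250.2 CPM, against 193 CPM in the rest, a log2 ratio of 0.37 (0.31 to 0.44). Macrophages past a UMI minimum were also deeper, with a median of 7145 UMIs for Ccl3 and Ccl4, against 4221.5 UMIs in the other PyMT-N macrophages. In the MHC class II division the medians were 5926 UMIs above and 3587.5 UMIs below in PyMT-N, and 5094 UMIs above and 5170 UMIs below in PyMT-M. The part of depth in these levels was not tested.

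Among PyMT-N neutrophils, Il1b, Il1r2 and Il1rn were low in the cells with granule genes. The 68 cells with 3 or more UMIs of Ngp, Camp and Ltf, granule genes of immature neutrophils, had Il1b at 2982 CPM, against 10672 CPM in the others. Il1r2 was at 444 CPM, against 1050.0 CPM, and Il1rn at 133 CPM, against 522 CPM. Those cells had a median of 5262 UMIs, against 1783.5 UMIs in the others. The 925 cells with 3 or more UMIs of Retnlg were also lower in all of these, with Il1r2 at 633 CPM, against 1310 CPM in the others. In PyMT-M the 21 neutrophils with Retnlg were lower in Il1r2 and Il1rn but not in Il1b, which was at 17804 CPM, against 15923 CPM in the others (log2 ratio 0.16). The 958 cells with 2 or more UMIs of the hypoxia gene Hilpda were lower in Il1b (8335 CPM, against 11444 CPM) and higher in Il1r2 (1298 CPM, against 832 CPM) and Il1rn (661 CPM, against 396 CPM). Il1b therefore went the other way from its decoy and antagonist in the Hilpda division. With Siglecf, Il1b was at 11066 CPM, against 10013 CPM, and in the 477 cells with interferon genes at 10308 CPM, against 10202 CPM. In those 477 cells Il18bp was at 23.3 CPM, against 9.94 CPM in the others, from 32 and 48 UMIs. Cells past these minimums were deeper as well. With and without Retnlg the medians were 2379 and 1635 UMIs, and for Hilpda 2017.5 and 1713 UMIs. For the interferon genes they were 2306 and 1743 UMIs, and for Siglecf 1901 and 1786.5 UMIs. The part of depth in these neutrophil levels was not tested. In cells thinned to equal depth, Il1rn was found in 28.0% of PyMT-N neutrophils with Il1b and 28.7% of those without it, and Il1r2 in 47.0% and 50.3%.

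**Figure D5:**
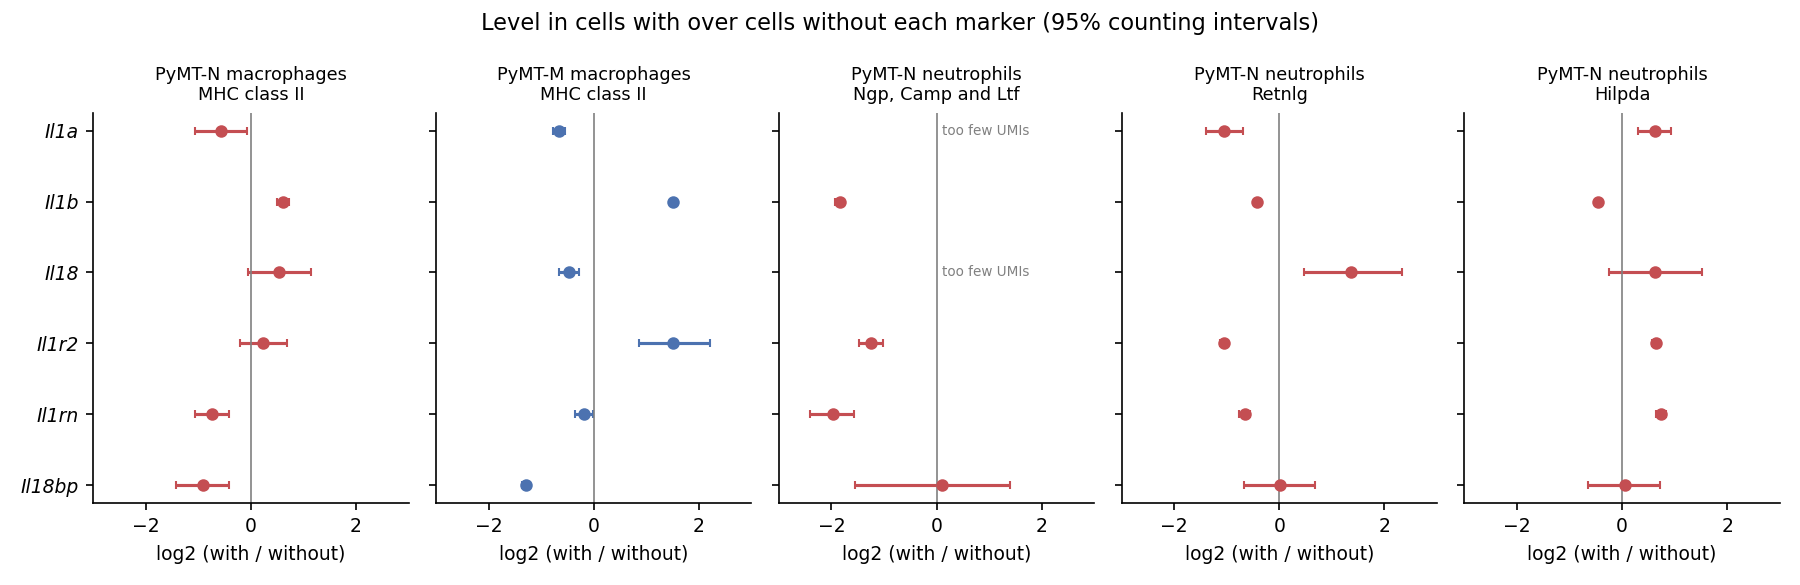
Log2 ratio (x axis) of the level in cells with a marker over cells without it, for 6 genes (y axis), with 95% counting intervals, PyMT-N in red and PyMT-M in blue; the MHC class II panels compare macrophages above and below the median share, and the neutrophil panels show PyMT-N alone. Il1b lies right of 0 and Il18bp left of 0 in both macrophage panels, and Il1b, Il1r2 and Il1rn lie left of 0 in PyMT-N neutrophils for the granule genes and for Retnlg.

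T cells showed how few cells can set a member's level. In T cells 3 of 4 listed members (Il1b, Il1r2 and Il1rn) were 2-fold or more higher in PyMT-N, where 4.9% of 8455 listed genes were, and 1 (Il18bp) in PyMT-M, where 9.82% were. Il1b was at 256 CPM in PyMT-N, against 3.19 CPM in PyMT-M. Of its 164 UMIs in PyMT-N, 127 were in 8 T cells with 5 or more UMIs of S100a8 or S100a9, as were 23 of 26 Il1rn UMIs. Without cells that also passed the minimum of another class the Il1b ratio was 2.89 instead of 5.94. Il1rn had no UMI in PyMT-M T cells and was at least 38.1-fold higher in PyMT-N against 3 UMIs in that PyMT-M class, but its ratio was 0 without those cells. The Il18bp ratio of -1.60 rests on 1 UMI in PyMT-N and 19 in PyMT-M, and its interval (-7.49 to 0.54) spans 0. Il1r2 differed: 10 of its 25 PyMT-N UMIs were in 3 of 26 cells with Foxp3, the gene of regulatory T cells, and 13 in those 8 cells.

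Receptor chains of the family outside the members were found in different classes. Il18r1, the binding chain of the interleukin 18 receptor, was at 65.5 CPM in PyMT-N T cells (47.2 to 88.6) and 14.9 CPM in PyMT-M T cells (10.7 to 20.2). Il1rl1, the interleukin 33 receptor, was at 54.6 CPM in PyMT-N T cells (38.0 to 75.9) and 1.42 CPM in PyMT-M T cells (0.387 to 3.64). The T cell classes differed in makeup, with Foxp3 found in 26 of 167 PyMT-N and 7 of 550 PyMT-M cells. The part of that makeup in the Il18r1 and Il1rl1 levels was not tested. Monocytes had Il1rl1 at 4.76 CPM in PyMT-N, from 8 UMIs, and 5.31 CPM in PyMT-M, from 6 UMIs. Il1rl2, the interleukin 36 receptor, was listed in macrophages alone, at 5.06 CPM in PyMT-N, against 3.60 CPM in PyMT-M. Il18rap, the signalling chain for interleukin 18, was found in NK cells as well as neutrophils. The 29 PyMT-N NK cells had Il18rap at 56.1 CPM (9 UMIs) and Il18r1 at 31.2 CPM (5 UMIs). The 369 PyMT-M NK cells had 11.1 CPM and 11.8 CPM of the same genes. PyMT-N neutrophils had 60.0 CPM of Il18rap. PyMT-M neutrophils had 105 CPM (45.4 to 207), from 8 UMIs, and the interval of the ratio, -1.80 to 0.41, spans 0. Il18r1 itself was at 3.23 CPM there in PyMT-N, from 20 UMIs, and 13.1 CPM in PyMT-M, from 1 UMI. Of 13 family genes outside the members, 4 were listed in T cells. Of those, 3 were past 2-fold higher in PyMT-N, beside 4.9% of all listed genes, and 0 in PyMT-M, beside 9.82%. In macrophages 5 were listed, 1 higher in PyMT-N (Il18rap), beside 3.28% of all listed genes. There 1 was higher in PyMT-M (Sigirr, with 4 UMIs in PyMT-N), beside 8.19%. The Il18rap ratio of 1.04 was near the threshold, and 0 were higher in PyMT-N with a margin of 4 times the other lists, with neutrophil RNA removed, without cells of another class or with a pseudocount of 5 CPM. The number higher in PyMT-M was 0 under the last 2 of these alternatives.

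Of 18 genes for inflammasomes and cytokine processing, 16 were listed in macrophages. There 1 (Mefv, the pyrin sensor) was 2-fold or more higher in PyMT-N, beside 3.28% of all listed genes, and 0 in PyMT-M, beside 8.19%. The median ratio was -0.33, against -0.18 for all listed genes. Pycard, the adaptor, was at 251 CPM in PyMT-N, against 279 CPM in PyMT-M. Casp1 was at 27.8 CPM in PyMT-N, against 51.1 CPM in PyMT-M (log2 ratio -0.85), and Gsdmd, the pore protein that releases interleukin 1 beta, at 46.3 CPM and 80.7 CPM (-0.79). In neutrophils the sensor Nlrp3 was at 134 CPM in PyMT-N, against 249.7 CPM in PyMT-M, from 19 UMIs. In neutrophils 15 of the 18 were listed, 2 of them past 2-fold higher in PyMT-N, beside 33.6% of all listed genes, and 1 past 2-fold higher in PyMT-M, beside 14.8%. Both of the first, Nlrp1a and Naip5, had 0 UMIs in PyMT-M, so no ratio can be read from them. In monocytes 14 were listed, 1 higher in PyMT-N, beside 2.74% of all listed genes, and 0 in PyMT-M, beside 4.13%. In T cells 8 were listed, 1 higher in PyMT-N, beside 4.9% of all listed genes, and 2 in PyMT-M, beside 9.82%. None of 16 adaptor and kinase genes was past 2-fold in macrophages, beside the same 3.28% and 8.19% of all listed genes. Myd88 in macrophages was at 84.9 CPM in PyMT-N, against 90.7 CPM in PyMT-M. In neutrophils all 16 were listed, 4 higher in PyMT-N and 2 higher in PyMT-M, beside the same 33.6% and 14.8% of all listed genes. Of the 4, 3 had 0 UMIs and 1 had 1 UMI in PyMT-M neutrophils, and the 2 had 3 and 2 UMIs there, so no ratio can be read from the first 3.

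Il1r1 had 3 UMIs in PyMT-N macrophages and 0 in PyMT-M macrophages. Whether interleukin 1 set the levels of its known target genes in any class was not tested. All 12 early targets of interleukin 1 signalling were listed in macrophages. Of these, 3 (Cxcl1, Cxcl2 and Ptgs2) were 2-fold or more higher in PyMT-N, beside 3.28% of all listed genes. In PyMT-M 2 (Tnf and Nfkbiz) were higher, beside 8.19%. Cxcl1 had 10 UMIs in PyMT-N macrophages and 13 in PyMT-M macrophages. Cxcl2, a neutrophil-attracting chemokine, was at 634 CPM in PyMT-N, against 283 CPM in PyMT-M. Tnf was at 35.4 CPM in PyMT-N, against 198 CPM in PyMT-M. Without cells that also passed the minimum of another class, 0 of the 12 were 2-fold higher in PyMT-N. In neutrophils 1 of the 10 listed was higher in PyMT-N, beside 33.6% of all listed genes, against 1 in PyMT-M (Tnf), beside 14.8%. The first, Ccl2, had 0 UMIs in PyMT-M, so no ratio can be read from it. In monocytes 1 of 10 was higher in PyMT-N (Ptgs2, 77.9 CPM, against 13.3 CPM in PyMT-M), beside 2.74% of all listed genes. In T cells 2 of 8 (Cxcl2 and Nfkbiz) were higher in PyMT-N, beside 4.9% of all listed genes. Cxcl2 had 135 UMIs in PyMT-N T cells, against 1 in PyMT-M T cells, and was at 8321 CPM in PyMT-N neutrophils. S100a8 and S100a9 together were at 1351 CPM in PyMT-N T cells, against 0.355 CPM in PyMT-M T cells. The part of neutrophil RNA in the T cell level of Cxcl2 was not tested.

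Over 13 pools of class and tumour with 30 cells or more, the levels most like each member were described by Pearson's r of log2(CPM + 1). The pools share libraries and differ in depth, so r is a description. Il1b was most like Cxcl2 (0.97), Ccr1 (0.97) and Cd300lf (0.97), and Il1rn most like C5ar1 (0.97), Cxcl2 (0.96) and Csf3r (0.96). Il1r2 was most like Cxcr2 (0.97), Mmp9 (0.97) and Steap4 (0.96), of which Cxcr2 and Mmp9, like Csf3r, are markers of the neutrophil gate. Il1a was most like Slc40a1 (0.95), the iron exporter, Tgfbr1 (0.91) and Ptgs1 (0.91), and Il1rap most like Midn (0.96), Padi4 (0.95) and Foxo3 (0.94). Il18 was most like Gdpd3 (0.90), Apba1 (0.89) and Abca9 (0.89), and Il18bp most like Tmem206 (0.89), Hebp1 (0.88) and Pld2 (0.88). Between members, r was 0.92 for Il1b with Il1rn and 0.43 for Il18 with Il18bp.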

How the data were processed

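Raw UMI counts per gene and barcode were used as deposited by the authors, 1 matrix per tumour line, and the file headers give software version 3.1.0. Cell Ranger, Seurat and build mm10 are named per the submitters' processing notes, without versions. The members and gene lists were chosen with earlier results of these data known.

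Barcodes with 200 genes or more and at most 10% mitochondrial UMIs were kept, which removed 26 of 5020 PyMT-N and 119 of 7476 PyMT-M barcodes. A class needed 3 UMIs from 2 or more genes of its marker list and 2 times the UMIs of each of the other 8 lists. No doublet caller was run. Cells past the minimum of more than 1 class were left out as an alternative. UMIs were summed by class and given as CPM with exact Poisson intervals, ratios have exact conditional binomial intervals and shares exact Clopper-Pearson intervals, all at 95%. A count of 0 was read against 3 UMIs. Classes with 30 cells in both libraries were compared. Shares of cells come from cells thinned to 1000 UMIs, shallower cells left out (129 of 2844 PyMT-N and 4 of 44 PyMT-M neutrophils). The ratio intervals were tested on simulated Poisson counts. No test between tumours was run, since each has 1 library.

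All 8 members are named in each class compared. List genes named are among the 3 with the highest CPM and the 2 with the largest ratio each way in a class. Like genes are the 3 with the highest r among 8325 genes with 200 UMIs and 20 CPM in a pool. Ifng and the Foxp3 and S100a8 sets of T cells lie outside the rule, and the T cell sets were chosen after values were seen. Positions come from GENCODE annotation of GRCm38. Python 3.11.15, numpy 2.4.6, scipy 1.17.1, pandas 2.3.3 and matplotlib 3.10.9 were used.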

Additional observations from a re-analysis of the deposited data

Results flagged for a closer look

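Il1b and Il1rn stood out because classes of the same libraries went in opposite directions, each with an interval that leaves out 0. For Il1b the log2 ratio of PyMT-N over PyMT-M was 0.72 in monocytes, -0.72 in neutrophils and -0.65 in macrophages. For Il1rn it was 1.13 in macrophages, -1.44 in neutrophils and -0.93 in monocytes. With 1 library per line the difference between classes was not tested.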

How the results depend on the processing

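No ratio past 2-fold changed sign in 9 alternatives, and of 203 values of member ratios 189 stayed within counting error. Leaving out cells that passed the minimum of another class gave Il1b ratios of -0.98 in macrophages, 0.57 in monocytes and 2.89 in T cells, Il1rn ratios of 0.83 in macrophages and 0 in T cells, and an Il1r2 ratio of 2.62 in macrophages. With a margin of 4 times the other lists, Il1b was at -0.83 in neutrophils, -0.70 in macrophages and 0.59 in monocytes. With median of ratios scaling, Il1b was at -0.49 in neutrophils and -0.58 in macrophages. With neutrophil RNA removed, Il1b was at -0.86 in macrophages. A pseudocount of 5 CPM gave 2.70 for Il1r2 in macrophages and 3.19 for Il1rn in T cells. In monocytes 1 member in place of 0 was 2-fold higher in PyMT-M with the margin of 4 times, with neutrophil RNA removed, without cells of another class and with no minimum of UMIs. Members 2-fold higher in PyMT-N were 1 in macrophages and 0 in monocytes without cells of another class, where Il1r2 was still at 2.03 but under the 20 UMIs needed to be listed, and 2 in monocytes with no minimum. The cause was not tested. Of 96 shares of cells 51 moved, all with thinning depth. The 44 PyMT-M neutrophils, with 76098 UMIs, limit every neutrophil comparison. No paired analysis was possible because each line has 1 library.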

Other observations

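Cells without a class in PyMT-N had S100a8, a check gene of neutrophils, at 6604 CPM, against 13.7 CPM in those of PyMT-M. They held Il1b at 4025 CPM in PyMT-N, against 369 CPM in PyMT-M, Il1r2 at 430.2 CPM and 25.5 CPM, and Il1rn at 439 CPM and 20.9 CPM. In PyMT-M, 10 of these 439 cells held 89.6% of their 67 Il1r2 UMIs.

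Epithelial or tumour cells of PyMT-M, 83 cells that passed the sort, had Il18bp at 39.0 CPM (26.9 to 54.8, 33 UMIs) and Il1rap at 10.6 CPM (4.87 to 20.2, 9 UMIs), beside 1 UMI of Il1a and 4 of Il1b. C1qa, C1qb and C1qc were at 270 CPM in those cells, and their part in the Il18bp level was not tested.

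Ifng, a target of interleukin 18 signalling, was at 23.4 CPM in PyMT-N T cells (13.1 to 38.6) and 46.9 CPM in PyMT-M T cells (39.2 to 55.6). In NK cells it was at 68.6 CPM in PyMT-N (34.2 to 123, 11 UMIs in 29 cells) and 33.6 CPM in PyMT-M (26.8 to 41.5, 85 UMIs in 369 cells), with overlapping intervals.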
